A study of Mus musculus with 12 samples.

Results

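The neuregulins and the ErbB receptors were measured by 26 of the 41174 distinct probes on the array. The probes were chosen by gene name alone: every probe that the array annotation gave to Nrg1 (5 probes), Nrg2 (1), Nrg3 (2), Nrg4 (1), Erbb2 (2), Erbb3 (5), Erbb4 (4) or Egfr (6), the 8 of 21186 named genes considered here. Each probe was kept apart, because a probe's brightness depends on its sequence and cannot be set against that of another probe. In WT mice, Nrg1 was higher in the cerebellum than in the hippocampus and Nrg3 was higher in the hippocampus, while no tested probe of Erbb2, Erbb3 or Erbb4 passed the test for a regional difference. With En2 lost, the rank product called 1 of 17 tested member probes in the cerebellum (4.42% of all probes) and 1 of 12 in the hippocampus (4.26%). These were 1 of the 2 Nrg3 probes, higher in the cerebellum, and the Nrg2 probe, lower in the hippocampus, where its En2-/- signal was near the detection limit. Neither passed the second test, limma. With other background corrections or the authors' log2 values neither was called, and Erbb4 was called lower in the cerebellum.

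Neuregulins are growth factors with an EGF-like domain, mostly made as membrane proteins and released by cleavage, that bind the receptor tyrosine kinases ErbB3 and ErbB4. ErbB2 binds no known ligand and acts as the partner of the others, ErbB3 has a weak kinase and signals through its partners, and ErbB4 both binds ligand and has an active kinase. The EGF receptor, encoded by Egfr, belongs to the same receptor family and binds EGF and related ligands. In the brain these proteins are known for roles in interneurons and their synapses, in glia and in myelination.

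The arrays compared adult En2-/- mice, in which the homeobox domain of Engrailed-2 is deleted from every cell, with WT littermates of heterozygous matings, both sexes being used. The line began on a mixed, outbred background of 129Sv x C57BL/6 and had 5 or more crosses to C57BL/6, which WT and En2-/- mice share. RNA of the whole cerebellum or the whole hippocampus was labelled with a single dye, and each of the 4 groups had 3 arrays: WT cerebellum, En2-/- cerebellum, WT hippocampus and En2-/- hippocampus. In whole tissue, fewer cells of a type and less RNA per cell cannot be told apart.

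Between 62.3% and 73.0% of the 43379 non-control spots were well above background on an array, and the median signal over background ran from 5.72, on WT cerebellum array 3, to 10.4. Each of the 3 slides held 1 array of every group, at the same place on each slide, so place and group cannot be told apart. The single En2 probe lies outside the deleted part of the gene and checks nothing about the knockout: over both genotypes its log2 signal ran from 13.80 to 14.81 in the cerebellum, against 7.04 to 8.14 in hippocampal RNA. The tissues carried the markers of their labels, as all 6 granule neuron and all 6 Purkinje cell markers were higher in WT cerebellum, and all 7 pyramidal and dentate neuron markers in WT hippocampus (limma, adjusted p under 0.05).

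The sequences of the probes decide which transcript forms they can report. Protein domains are named here from the reading frame within each probe, no exon annotation of mm9 being used. For Erbb4, 2 of the 4 probes end 2 bases apart on chromosome 1 (mm9, minus strand) and differ in the exon upstream of their common end. The first lies at chr1:68089291-68090519 and reads out of the exon that distinguishes the CYT-1 form, whose tail can bind PI3 kinase. The second lies at chr1:68089289-68118127 and joins an exon further upstream directly to the common one, as in the CYT-2 form. Capitals mark the run of 22 bases that both contain.
A_51_P283698: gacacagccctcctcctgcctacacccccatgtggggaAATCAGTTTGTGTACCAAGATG
A_52_P256090: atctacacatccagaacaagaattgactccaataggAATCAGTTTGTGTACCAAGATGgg

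The CYT-1 probe was well above background on 12 of 12 arrays, and the CYT-2 probe on 2 of 12. The forward Erbb4 primer that the study used for quantitative PCR overlaps the CYT-1 probe by 14 bases, shown in capitals, and shares no run of more than 5 bases with the CYT-2 probe.
forward primer: agtgaaattgGACACAGCCCTCCT

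Of the 5 Nrg1 probes, 2 read the segment that binds the receptors and so bear directly on the ligand. A_52_P369769 (chr8:32959791-32959850, mm9, minus strand) lies within the coding sequence of the EGF-like domain. A_52_P369761 (chr8:32941681-32948181, minus strand) spans an intron and reads the end of that domain in its beta form.
A_52_P369769: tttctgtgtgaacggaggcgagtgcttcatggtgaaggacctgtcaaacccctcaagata
A_52_P369761: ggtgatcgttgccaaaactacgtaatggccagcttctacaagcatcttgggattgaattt

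Erbb2, Erbb3 and Erbb4 each had a probe for the same stretch of the kinase domain. They are shown because all 3 were rarely detected: A_51_P216179 (chr11:98295824-98295883, plus strand) was well above background on 1 of 12 arrays, A_51_P342050 (chr10:128009195-128009254, minus strand) on 1 and A_51_P396034 (chr1:68125116-68125175, minus strand) on 2. Capitals mark the 33 of 56 aligned positions at which all 3 have the same base.
A_51_P216179: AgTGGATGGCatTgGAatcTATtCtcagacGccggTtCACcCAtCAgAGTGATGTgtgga
A_51_P342050: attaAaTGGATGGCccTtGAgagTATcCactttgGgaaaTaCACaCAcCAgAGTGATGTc
A_51_P396034: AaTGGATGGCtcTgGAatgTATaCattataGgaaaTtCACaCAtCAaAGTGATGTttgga

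How often a probe was detected followed its distance from the 3' end of the gene in some members and not in others. In Nrg1, Nrg3, Erbb2, Erbb3 and Egfr the probe nearest the 3' end was well above background on all 12 arrays. The other 4 Erbb3 probes, between 2532 and 17348 bases further 5', reached that level on 0 to 3 arrays, and the other Erbb2 probe, 2279 bases further 5', on 1. In Egfr, by contrast, probes 3815, 30245 and 34085 bases further 5' were also well above background on all 12 arrays, as was the second Nrg3 probe. The 5 Nrg1 probes, from the 3' end, reached that level on 12, 5, 9, 6 and 9 arrays. In Erbb4 the CYT-1 and CYT-2 probes share the 3' position, with 12 and 2 arrays. The most 5' Egfr probe, A_52_P5855, designed to a cDNA clone 161992 bases upstream of the last one, was well above background on no array. In all, 11 probes were well above background on all 12 arrays and 2 on none. Probes were tested where at least 1 of the groups compared had all 3 arrays well above background: 17 member probes were tested in the cerebellum and between the regions, 12 in the hippocampus, and 9 in no comparison. Those 9 were the kinase probes above, the other 3 dim Erbb3 probes, the CYT-2 probe, the Erbb4 probe A_52_P608535 and A_52_P5855.

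**Figure D1:**
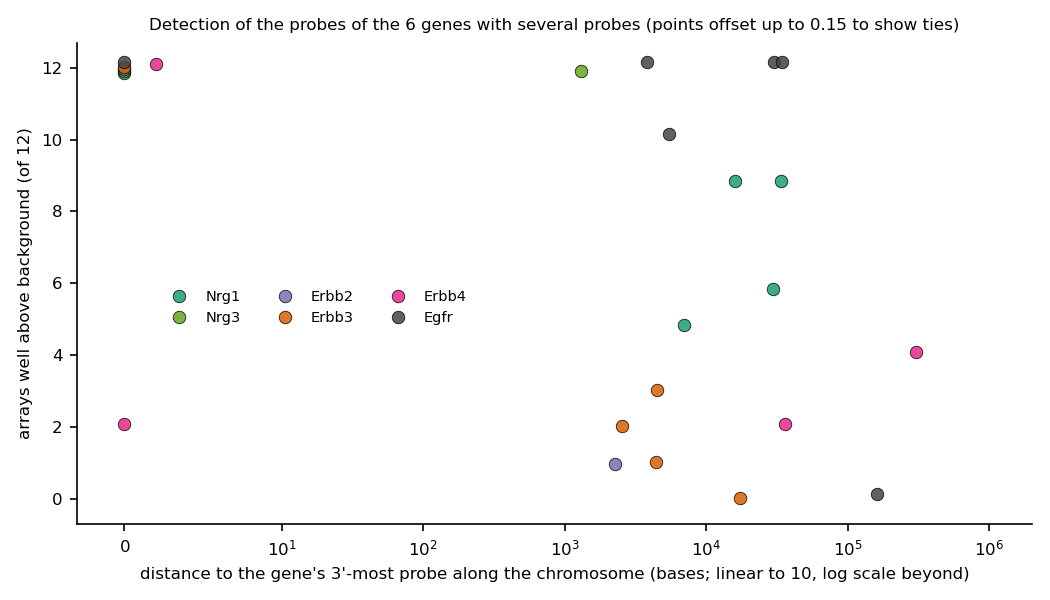
Detection of the 24 probes of the 6 genes with more than 1 probe. The horizontal axis gives the distance in bases along the chromosome to the gene's 3'-most probe (linear to 10 bases, log scale beyond), the vertical axis the number of arrays, of 12, on which the probe was well above background, and the colours the genes. Erbb2, Erbb3 and Erbb4 probes 2279 bases or more from the 3' end lie at 4 arrays or fewer, while most Egfr probes lie at 10 or more.

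The regional comparison asked where each ligand and receptor was expressed. Of the 17 member probes tested, 9 differed between WT cerebellum and WT hippocampus (limma, adjusted p under 0.05), 6 higher in the cerebellum and 3 higher in the hippocampus. These were probes of Nrg1, Nrg3 and Egfr alone, so they do not count separate genes. Some of the Nrg1 probes entered the test through cerebellum groups alone, which favoured that direction. Over all 25479 probes tested, 27.8% differed, so regional differences were common on this array. In En2-/- mice 6 of the 17 differed, against 24.3% of all probes.

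Nrg1, the neuregulin best known from axons and interneurons, was higher in WT cerebellum by 4 of its 5 probes. Of these 4, only A_52_P158772 was well above background on all 12 arrays. The others entered the test through cerebellum groups alone, where they were brighter, so their direction was favoured by the filter. On the EGF-like domain probe A_52_P369769, the 3 WT cerebellum arrays read 7.95, 7.45 and 6.75 and the 3 WT hippocampus arrays 4.9996, 4.61 and 5.48, on the normalised log2 scale on which all levels here are given. The En2-/- cerebellum gave 7.26, 7.67 and 7.24, against 4.21, 4.52 and 5.36 for the hippocampus. Every cerebellum array lay above every hippocampus array, and the genotypes overlapped within each region. The regional difference was 5.10-fold in WT (log2 difference 2.35, SE 0.36, adjusted p = 0.000434) and 6.46-fold in En2-/- mice (2.69, SE 0.36, adjusted p = 0.000197). The hippocampal signal was near the detection limit, being well above background on 2 of 3 WT and 1 of 3 En2-/- arrays, and the En2-/- values of 4.21 and 4.52 lay below the lowest signal counted as such on their arrays (4.93 and 4.87), so that the folds rest partly on dim values.

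The beta-form probe A_52_P369761 gave a difference of the same order. Its WT levels were 7.13, 7.43 and 6.16 in the cerebellum against 4.71, 4.54 and 5.31 in the hippocampus. Its En2-/- levels were 6.89, 7.22 and 7.05 against 4.27, 5.02 and 5.32. The regions again did not overlap in either genotype, and the difference was 4.14-fold in WT (2.05, SE 0.35, adjusted p = 0.00104) and 4.53-fold in En2-/- mice (2.18, SE 0.35, adjusted p = 0.000804), with 2 of 3 WT and 1 of 3 En2-/- hippocampus arrays well above background. A_52_P158772, designed to a cDNA clone at the 3' end of the gene (chr8:32925808-32925867), was detected on all 12 arrays and was 3.101-fold higher in WT cerebellum (1.63, SE 0.21, adjusted p = 0.000109). In En2-/- mice its difference was 5.80-fold (2.54, SE 0.21, adjusted p = 3.99e-06).

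A_52_P52635, in the cytoplasmic tail of Nrg1 (chr8:32932765-32932824), was well above background on 2 of 3 WT and 3 of 3 En2-/- cerebellum arrays and on none of 6 hippocampus arrays, and so was tested through the En2-/- cerebellum alone. Its fold is therefore a bound: the level was at least 1.42-fold higher in WT cerebellum (adjusted p = 0.00951). The same bound for En2-/- cerebellum was 1.53-fold and its difference did not pass (adjusted p = 0.0678). Both p-values compare values of which the hippocampal ones were not well above background, and for the bounds the dim group was set at the lowest signal counted as well above background on each array, or at its own value where higher. The last Nrg1 probe, A_52_P328064, from a cDNA clone at chr8:32955582-32955641, did not pass in WT (log2 difference 0.79, 95% interval -0.32 to 1.90) except without WT cerebellum array 3 (1.35, adjusted p = 0.0443). Within slides, A_52_P369769 was higher in WT cerebellum by 2.95, 2.84 and 1.27 and A_52_P158772 by 1.75, 1.32 and 1.84 on the log2 scale.

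**Figure D2:**
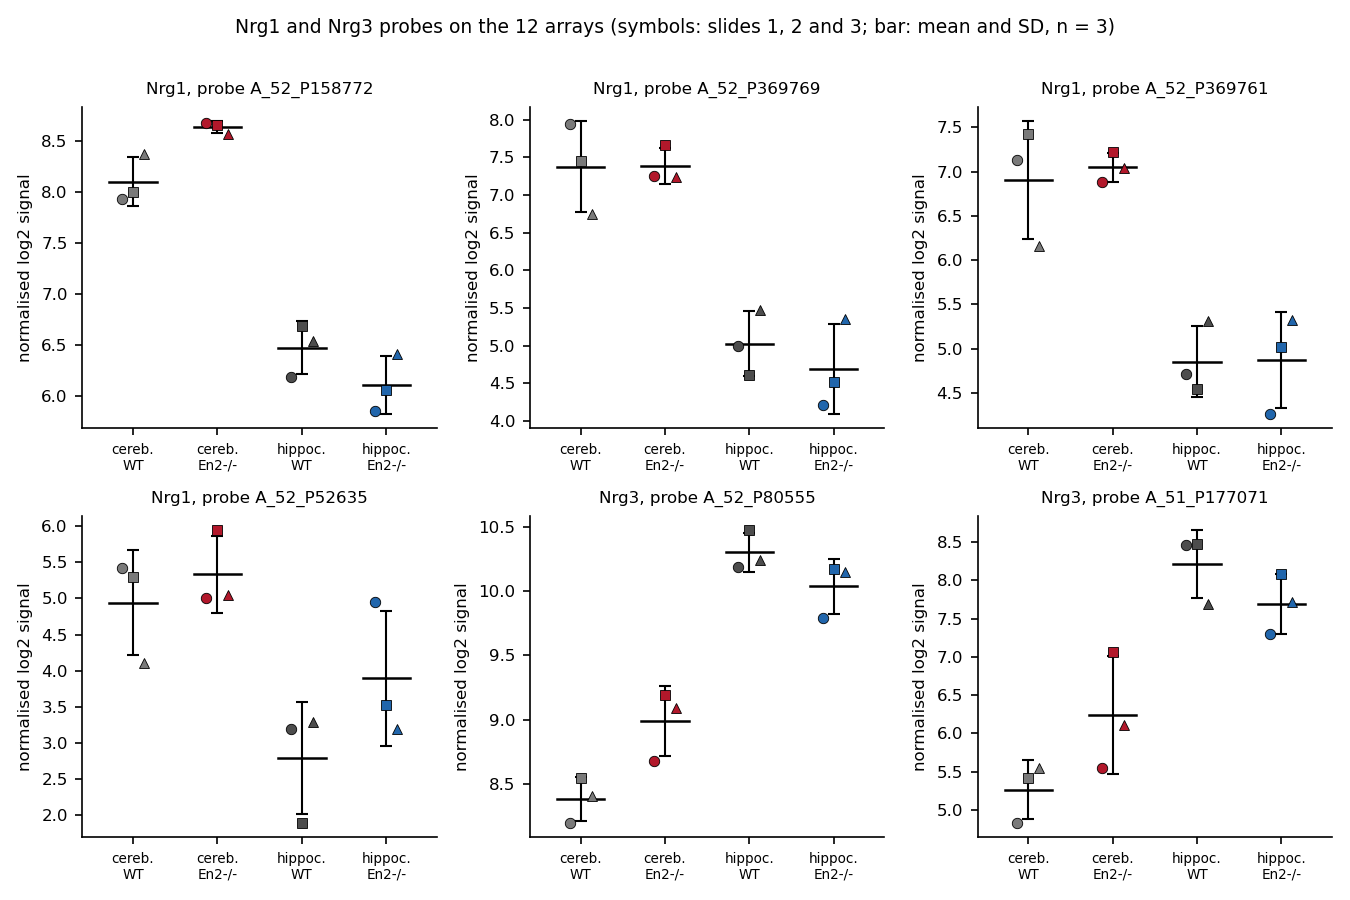
Normalised log2 signal of 4 Nrg1 and 2 Nrg3 probes on each of the 12 arrays, by group. Circles, squares and triangles are slides 1, 2 and 3, and the horizontal line and bar give the group mean and SD (n = 3). Axes do not start at 0 and differ between panels. On the first 3 Nrg1 panels every cerebellum array lies above every hippocampus array, and on both Nrg3 panels every hippocampus array lies above every cerebellum array.

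Nrg3, a neuregulin found mainly in the nervous system that binds ErbB4, ran the other way by both probes, which lie 1301 bases apart on chromosome 14 (chr14:39182365-39182424 and chr14:39183666-39183725, mm9, minus strand). On A_52_P80555 the levels were 8.20, 8.54 and 8.41 in WT cerebellum and 10.19, 10.47 and 10.24 in WT hippocampus. In En2-/- mice the cerebellum gave 8.68, 9.19 and 9.09, against 9.79, 10.17 and 10.15 for the hippocampus. The regions did not overlap in either genotype, and the En2-/- arrays lay between the WT arrays of the 2 regions. Nrg3 was 3.77-fold higher in WT hippocampus (log2 difference -1.92, SE 0.20, adjusted p = 2.08e-05) and 2.07-fold higher in En2-/- hippocampus (-1.05, SE 0.20, adjusted p = 0.00226).

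The second Nrg3 probe, A_51_P177071, read 4.84, 5.41 and 5.55 in WT cerebellum and 8.46, 8.47 and 7.69 in WT hippocampus. In En2-/- mice the cerebellum gave 5.55, 7.07 and 6.11, against 7.29, 8.07 and 7.71 for the hippocampus. The fold in favour of the hippocampus was 7.68 in WT (-2.94, SE 0.38, adjusted p = 0.000117) and 2.73 in En2-/- mice (-1.45, SE 0.38, adjusted p = 0.0152). Within slides the WT differences were -3.63, -3.05 and -2.14 for this probe and -1.99, -1.93 and -1.83 for A_52_P80555. The En2-/- call of A_51_P177071 was lost without En2-/- cerebellum array 1 (adjusted p = 0.058) or 3 (0.055), or without En2-/- hippocampus array 2 (0.0606).

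Nrg2 and Nrg4, the other members of the ligand family, did not pass for region in WT mice. Nrg2, read by 1 probe (A_52_P581659, on chromosome 18), differed there by 0.82 on the log2 scale (95% interval -0.50 to 2.14) and was 3.56-fold higher in the cerebellum of En2-/- mice (1.83, SE 0.60, adjusted p = 0.0452), a call that was lost in 11 of 19 alternative settings, 8 of which left out a single array. That fold rests partly on dim values, since the Nrg2 probe was well above background on 1 of 3 En2-/- hippocampus arrays and its values on arrays 1 and 3, 3.98 and 3.65, lay below the lowest signal counted as such there, 4.93 and 4.32. Nrg4 (A_51_P159803, chr9:55074489-55074548) read 6.17, 5.86 and 6.22 in WT cerebellum and 5.51, 5.76 and 4.65 in WT hippocampus. These groups did not overlap, but the difference of 0.78 (SE 0.30) did not pass (adjusted p = 0.0734). It passed when each array was scaled to its 75th percentile (adjusted p = 0.0323), with quantile normalisation within each tissue (0.00778) and without WT hippocampus array 2 (0.0415). The En2-/- difference was 0.23 (95% interval -0.42 to 0.88).

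No tested probe of Erbb2, Erbb3 or Erbb4 passed for region in either genotype. The CYT-1 probe of Erbb4 differed by 0.21 in WT (95% interval -0.41 to 0.82) and by -0.40 in En2-/- mice (-1.02 to 0.21). The 3' probe of Erbb3 (A_52_P432949, chr10:128004749-128004808) differed by 0.43 in WT (-0.05 to 0.91), and that of Erbb2 (A_52_P49250, chr11:98298103-98298162) by 0.45 (0.001 to 0.908, limma adjusted p = 0.127). In En2-/- mice the Erbb2 probe differed by 0.48 (0.03 to 0.93, adjusted p = 0.118). Both Erbb2 intervals, which are not adjusted for the number of probes, lay above 0. The arrays of the regions did not overlap for Erbb2 in either genotype, for Erbb3 in WT or for Erbb4 in En2-/- mice. The upper ends of the WT intervals were 1.77-fold for Erbb4 and 1.88-fold for both Erbb3 and Erbb2. Both Erbb2 and Erbb3 passed in WT when arrays were quantile normalised within each tissue (adjusted p = 0.00862 and 0.0305), a setting that moved the median of all probes to 0.33. Erbb2 also passed in En2-/- mice in that setting (limma adjusted p = 0.00806) and without En2-/- hippocampus array 1 (log2 difference 0.67, adjusted p = 0.0377).

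Egfr had 5 measured probes, and they did not go one way. A_52_P106259 (chr11:16813815-16813874) was 1.87-fold higher in WT cerebellum (adjusted p = 0.0278), with levels of 10.65, 10.50 and 11.01 against 9.31, 9.86 and 10.30. A_51_P392242 (chr11:16787385-16787444) was 1.71-fold higher (adjusted p = 0.0169). The 3'-most probe, A_52_P175190 (chr11:16817630-16817689), was 1.90-fold higher in WT hippocampus (adjusted p = 0.0275), with levels of 6.24, 6.43 and 7.09 in the cerebellum against 7.47, 7.59 and 7.48. The 3 calls therefore contradict each other on the direction for the gene. No Egfr probe passed in En2-/- mice. All 3 WT calls were fragile: each was lost on leaving out single arrays (A_52_P175190 without WT cerebellum array 1 or 2 or any WT hippocampus array, adjusted p = 0.054 to 0.102, A_52_P106259 without WT cerebellum array 1 or 3 or hippocampus array 1 or 2, 0.0559 to 0.117, and A_51_P392242 without WT cerebellum array 1 or hippocampus array 1 or 2, 0.0513 to 0.0755).

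**Figure D3:**
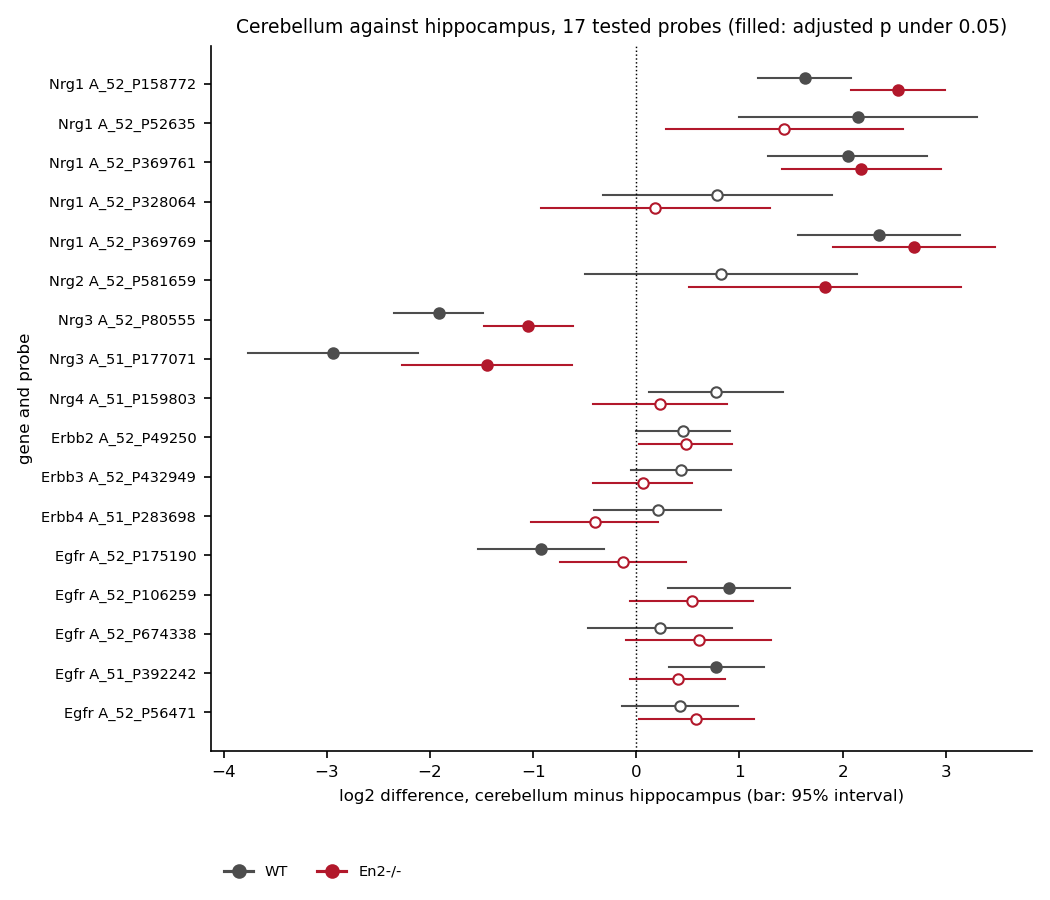
Log2 difference between cerebellum and hippocampus for the 17 tested probes, in WT (grey) and En2-/- mice (red), with 95% intervals from limma. Filled points have an adjusted p under 0.05, and values right of 0 are higher in the cerebellum. Nrg1 lies to the right and both Nrg3 probes to the left in both genotypes. The Erbb2, Erbb3 and Erbb4 probes lie between -0.40 and 0.48, with open points.

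The genotype comparison asked which members changed without En2. In the cerebellum 1 of 17 tested probes was called by the rank product (P under 0.01), against 4.42% of all 25040 probes, and none passed limma's adjusted p, against 0.579% of all probes. In the hippocampus 1 of 12 was called (P under 0.005), against 4.26% of 23764 probes, and none passed limma, against 2.15%. At an unadjusted limma p under 0.05 there were 3 of 17 member probes in the cerebellum (2003 of all 25040) and 1 of 12 in the hippocampus (5031 of 23764). Each count of called members rested on a single probe.

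The call in the cerebellum was Nrg3 on A_51_P177071, whose 6 values are given above. The highest WT array and the lowest En2-/- array both read 5.55, and the En2-/- mean was 1.97-fold higher (log2 difference 0.97, SE 0.39, rank product permutation P = 0.00789, limma adjusted p = 0.592). The proportion of false predictions at this rank was 0.435. The second Nrg3 probe, A_52_P80555, was 1.52-fold higher (0.60, SE 0.22), every En2-/- array lying above every WT array, and was not called (permutation P = 0.0596, adjusted p = 0.526). Within slides the differences were 0.72, 1.65 and 0.55 on the first probe and 0.48, 0.65 and 0.68 on the second. The call was lost with the mean signal corrected by background subtraction (permutation P = 0.0575) or normexp (0.0567), with the authors' log2 values (0.0561) and without En2-/- cerebellum array 2 (0.0811) or 3 (0.0121) or WT cerebellum array 1 (0.0291) or 2 (0.0142).

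Marker lists of other cell types were read on the same cerebellum arrays, where no marker of these 3 lists passed limma and 1, of the choroid plexus, was called by the rank product. The 5 tested of 7 pyramidal and dentate neuron markers had a mean log2 level, relative to the WT mean, of 0.12 to 0.69 on the En2-/- arrays and -0.34 to 0.28 on the WT arrays, and 4 of the 7 were well above background on all WT arrays. The 5 tested of 6 choroid plexus markers stood at 0.36 to 0.62 against -0.15 to 0.13, and the 6 Purkinje cell markers at -0.47 to -0.31 against -0.24 to 0.37. Their part in the Nrg3 difference was not tested.

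The call in the hippocampus was Nrg2. The WT arrays read 5.74, 5.19 and 6.12 and the En2-/- arrays 3.98, 5.17 and 3.65. The genotypes did not overlap, but En2-/- array 2 came within 0.02 of its WT counterpart on the same slide, and the within-slide differences were -1.75, -0.02 and -2.47. The mean was 2.67-fold lower in En2-/- hippocampus (95% interval 1.39 to 5.13 from values partly below the detection limit, rank product permutation P = 0.000654, proportion of false predictions 0.0849, limma adjusted p = 0.117). The probe was well above background on 3 of 3 WT and 1 of 3 En2-/- arrays. It thus entered the test through the WT group alone, where it was brighter, and the filter on every array left it untested. Without En2-/- hippocampus array 2 it passed limma (log2 difference -1.87, adjusted p = 0.0446), and without En2-/- array 3 (permutation P = 0.00915) or WT array 3 (0.00526) the rank product no longer called it. It was also not called with background subtraction (permutation P = 0.0864), normexp (0.0865) or the authors' log2 values (0.102). In the cerebellum the Nrg2 arrays overlapped, with 7.31, 6.96 and 5.26 in WT and 5.10, 7.09 and 6.12 in En2-/- mice (log2 difference -0.41, permutation P = 0.0362, not called). There the rank product called Nrg2 lower without En2-/- array 2 (permutation P = 0.00821) or WT array 3 (0.00821), while without En2-/- array 1 the difference was 0.09.

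In the same En2-/- hippocampus arrays the mean of the 6 thalamus neuron markers stood at 0.57 to 1.38 relative to the WT mean (WT -0.20 to 0.16). That of the 7 microglia markers, 6 of them lower, stood at -0.64 to -0.60 (WT -0.12 to 0.09), and that of the 5 endothelial cell markers at -0.79 to -0.49 (WT -0.21 to 0.23). The mean of the 5 choroid plexus markers ranged from -2.60 to 1.26 (WT -0.62 to 0.63). That of the 7 pyramidal and dentate neuron markers ranged from -0.77 to -0.01 (WT -0.13 to 0.26). The rank product called 3 thalamus neuron markers higher, and 2 microglia, 1 endothelial cell and 1 choroid plexus marker lower. Of these lists, 1 thalamus neuron marker passed limma. All of these markers were well above background on every hippocampus array. Their part in the Nrg2 difference was not tested.

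Erbb4 was the receptor with the largest measured difference in the cerebellum. The CYT-1 probe read 10.79, 10.73 and 9.67 in WT and 9.59, 9.92 and 9.90 in En2-/- cerebellum, so WT array 3, the array with the lowest median signal over background, lay within the En2-/- range. The mean was 1.51-fold lower (log2 difference -0.59, 95% interval -1.34 to 0.15, permutation P = 0.044, adjusted p = 0.733) and was not called. It was called lower with background subtraction (permutation P = 0.0089), normexp (0.00897) and the authors' log2 values (0.00943). Within slides the differences were -1.20, -0.81 and 0.23. The study, on its own normalised values, lists Erbb4 as lower in En2-/- cerebellum, at a rank product P just under its limit. It also reports a significant difference by quantitative PCR. That PCR used RNA pooled over mice of a genotype, so its P does not measure the spread between single mice. In the hippocampus the probe read 10.14, 10.41 and 10.01 in WT and 10.11, 10.48 and 10.02 in En2-/- mice, a difference of 0.02 (95% interval -0.45 to 0.48).

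No Erbb2, Erbb3, Nrg4 or Egfr probe was called in either tissue. Erbb3, the receptor known from oligodendrocyte lineage and Schwann cells, differed by -0.13 in the cerebellum (95% interval -0.63 to 0.37), the hippocampal difference being 0.24 (-0.29 to 0.76). For Erbb2 these values were -0.11 (-0.60 to 0.39) and -0.13 (-0.62 to 0.36). The Nrg4 difference was -0.50 in the cerebellum (-1.10 to 0.09), and the hippocampal one 0.04 (-0.66 to 0.74). The 5 Egfr probes ran from -0.02 to 0.54 in the cerebellum. The 5 Nrg1 probes ran from 0.01 to 0.66 in the cerebellum, with A_52_P158772 at 0.54 (SE 0.21, adjusted p = 0.552), and its 3 En2-/- values of 8.68, 8.66 and 8.57 lay above the WT values of 7.93, 8.0045 and 8.38.

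**Figure D4:**
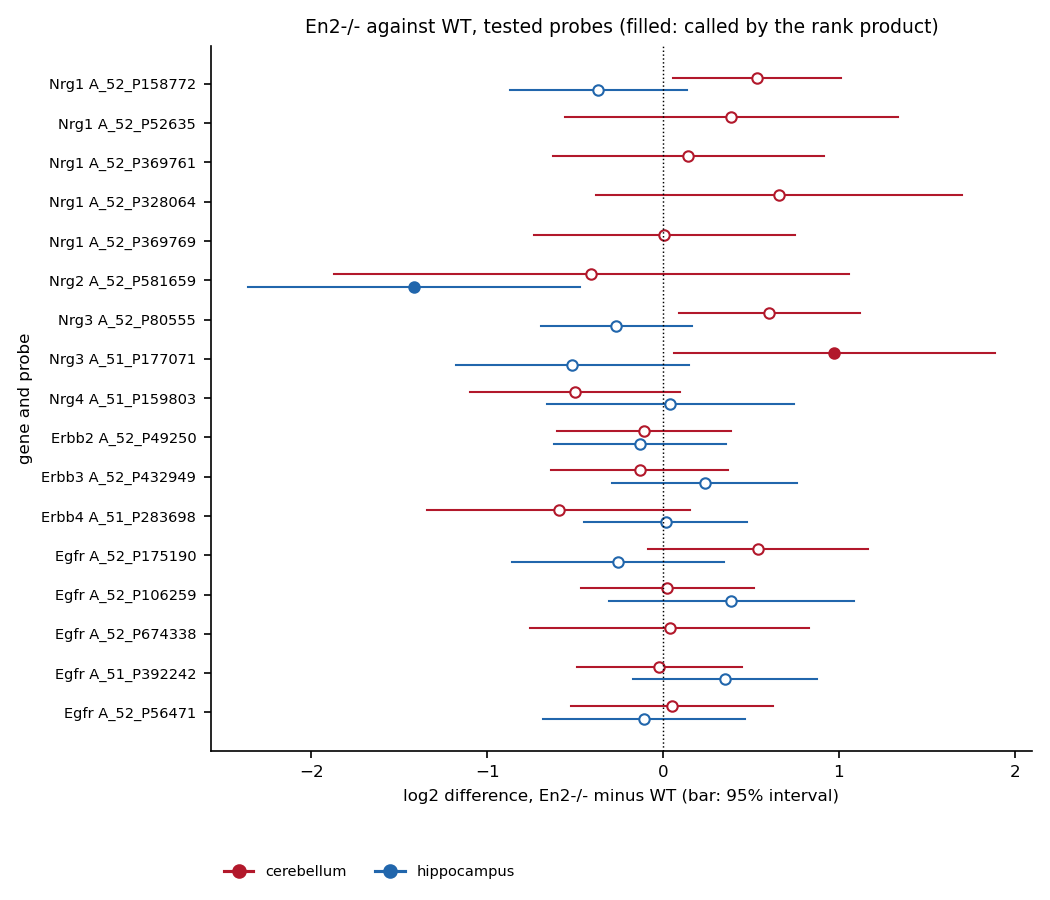
Log2 difference between En2-/- and WT for the member probes tested in the cerebellum (red, 17 probes) and the hippocampus (blue, 12 probes), with 95% intervals from limma. Filled points were called by the rank product, and values right of 0 are higher in En2-/- mice. Nrg3 A_51_P177071 in the cerebellum and Nrg2 in the hippocampus are the filled points.

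**Figure D5:**
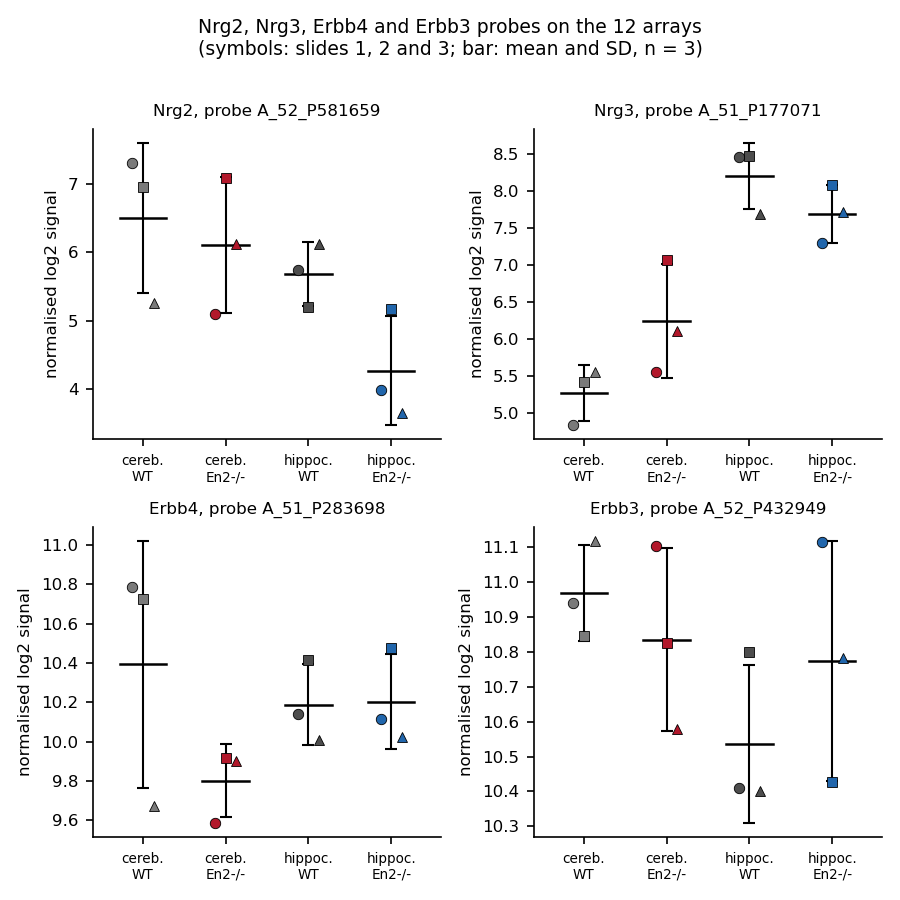
Normalised log2 signal of Nrg2, Nrg3 (A_51_P177071), the CYT-1 probe of Erbb4 and the 3' probe of Erbb3 on each of the 12 arrays, by group. Circles, squares and triangles are slides 1, 2 and 3, the line and bar the mean and SD (n = 3), and axes do not start at 0. In the Erbb4 panel the triangle of WT cerebellum lies at 9.67, apart from the other WT values at 10.79 and 10.73.

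Whether the effect of genotype differed between the regions was tested directly. None of the 17 probes passed (limma, adjusted p under 0.05), against 0.102% of all 25479 probes, and 3 had an unadjusted p under 0.05 (2884 of all 25479). These were both Nrg3 probes and Nrg1 A_52_P158772. The genotype effect in the cerebellum exceeded that in the hippocampus by 0.87 on A_52_P80555 (95% interval 0.26 to 1.48, adjusted p = 0.322), by 1.49 on A_51_P177071 (0.33 to 2.65, adjusted p = 0.355) and by 0.90 on A_52_P158772 (0.26 to 1.54, adjusted p = 0.327). For Erbb4 the value was -0.61 (-1.48 to 0.26). On A_52_P80555 alone among the tested members the genotypes did not overlap in either tissue and ran in opposite directions, a pattern found for 1.25% of the 23249 probes tested in both tissues. Its hippocampal difference alone was -0.27 (95% interval -0.70 to 0.17).

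The other genes of the pathway were taken from 6 lists of 105 genes on the array, each gene read by its brightest probe. Of 97 tested, 37 differed between WT cerebellum and hippocampus, 16 higher and 21 lower, with a median log2 difference of -0.20. Over all 15834 genes tested, 29.8% differed and the median was 0.07. Among the EGF family ligands outside the members, Hbegf was 3.102-fold higher in the cerebellum (adjusted p = 0.000533) and Tgfa 2.25-fold higher in the hippocampus (adjusted p = 0.0192), both of them ligands of the EGF receptor. Of 15 genes of the Ras and MAP kinase branch, 2 were higher and 7 lower in the cerebellum, and of 30 genes of the PI3 kinase, AKT and other branches, 4 and 8. Of 13 ligand processing genes 2 were higher and none lower, of 19 adaptors and scaffolds 5 and 1, and of 16 negative regulators 2 and 4.

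Among pathway genes past the adjusted p, those with the largest cerebellar excess in WT were Grb7, an adaptor that binds ErbB receptors (11.95-fold, log2 difference 3.58, SE 0.40), Lrig1, which promotes the breakdown of ErbB receptors (5.76-fold, 2.53, SE 0.32), and Pik3r3, a regulatory subunit of PI3 kinase (4.51-fold, 2.17, SE 0.29). A flagged Pik3r3 spot on En2-/- cerebellum array 1 was left out of the fit. The largest hippocampal excesses among genes past the adjusted p were those of Prkca (3.92-fold, -1.97, SE 0.27) and Prkcb (3.53-fold, -1.82, SE 0.24), both protein kinase C isoforms, and of Nck2, an adaptor (3.48-fold, -1.80, SE 0.32). All 6 kept their calls in every alternative setting run.

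Few pathway genes changed with genotype. In the cerebellum 1 of 97 was called by the rank product, against 4.13% of all 15611 genes: Epgn, a ligand of the EGF receptor, was 1.72-fold higher with overlapping groups (permutation P = 0.00957, limma adjusted p = 0.84), a call lost in 11 of 16 alternative settings, among them the omission of either of 2 En2-/- arrays or 2 WT arrays (permutation P = 0.0215 to 0.101). In the hippocampus 2 of 98 were called, against 3.54% of 14986 genes, and both were lower in En2-/- mice. Dlg4, which encodes the postsynaptic scaffold PSD-95 that binds ErbB4, read 11.14, 12.11 and 11.34 in WT and 9.32, 10.28 and 10.03 in En2-/- hippocampus. It was 3.15-fold lower (log2 difference -1.66, SE 0.33, permutation P = 0.000267, limma adjusted p = 0.04998), the rank product called it in all 16 alternative settings, and limma lost it in 12 of 15, including the omission of any 1 of the 6 arrays (adjusted p = 0.0672 to 0.147). Cbl, a ubiquitin ligase that removes activated receptors, read 8.59, 7.58 and 7.89 in WT and 6.26, 7.33 and 6.15 in En2-/- hippocampus, 2.71-fold lower (permutation P = 0.000521, adjusted p = 0.0966), and of 16 alternative settings only the omission of WT array 1 lost the call (0.00548).

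The genes most like each member across the 12 arrays were listed as a description, since the arrays share groups and slides and 21376 probes were compared. The 2 closest to Nrg1 were Pxk (Pearson r = 0.983) and Ndufb8 (0.978), and the 2 closest to Nrg3 were Fndc3b (0.990) and Syt16 (0.986). Those of Erbb4 were Slc22a12 (0.986) and Plxna1 (0.978), those of Egfr Etnk2 (0.968) and Hps6 (0.968), and those of Nrg2 Naa25 (0.947) and Spon1 (0.935). Erbb3 was most like Serpinh1 (0.937) and Syne2 (0.914), Erbb2 most like Tns1 (0.926) and Sart3 (0.920), and Nrg4 most like Krcc1 (0.874) and Pqbp1 (0.871).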

How the data were processed

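The 12 Agilent 4x44K arrays were scanned once each, and the deposited spot intensities came from Feature Extraction 10.7.3.1, per the file headers. The authors also deposited log2 values, quantile normalised separately in each tissue, which were used as an alternative. Here gProcessedSignal was taken as log2, flagged outlier spots were dropped, arrays were quantile normalised together and spots of a probe averaged. Genes were named from the newer annotation, that of the cerebellum files, and 3 of the 26 member probes carried another name in the older hippocampus annotation. The sequences printed are those of the probes in the files and of a primer table of the study.

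Named probes well above background on all 3 arrays of a compared group, with at least 2 values in each group, were tested. Genotype calls followed the study's rank product (9 array ratios, 100 permutations, P under 0.01 in the cerebellum and 0.005 in the hippocampus, in each direction). They were made on the values normalised here, so they need not match the calls of the study. Errors, intervals and adjusted p-values (Benjamini-Hochberg over all probes tested, threshold 0.05) came from limma 3.58.1 in R 4.3.3, fitted to the 6 arrays of a tissue for genotype and to 12 arrays in 4 groups for region and for the difference of the genotype effects. The study's methods name 3 mice of each genotype for both tissues, so a mouse may have given both a cerebellum and a hippocampus array, and the fits to 12 arrays took the arrays as independent. The rank product P sets the ranks of a probe against values shuffled among the probes of each array, and does not measure the spread between arrays. The limma p-values measure the spread between arrays within groups, drawing in part on the spread of all probes tested. With 3 arrays per group, their number limits the precision. The scripts were tested on simulated data.

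All member probes were named, together with the pathway genes called for genotype, the 3 pathway genes highest in each region of WT mice and the 2 genes most like each member. The members and lists were chosen with earlier results of these data known. Alternatives changed the background correction, normalisation, filter, flags, block, arrays, statistic and probes per gene.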

Additional observations from a re-analysis of the deposited data

Results flagged for a closer look

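Nrg3 on probe A_52_P80555 stood out because the genotype difference ran in opposite directions in the 2 tissues with no overlap in either. In the cerebellum every En2-/- array (8.68, 9.19 and 9.09) lay above every WT array (8.20, 8.54 and 8.41), and in the hippocampus every En2-/- array (9.79, 10.17 and 10.15) lay below every WT array (10.19, 10.47 and 10.24). Of the 23249 probes tested in both tissues, 1.25% showed such a pattern. The effect in the cerebellum exceeded the hippocampal one by 0.87 log2 units (SE 0.28, adjusted p = 0.322 by limma), and over 20 alternative settings this value ran from 0.75 to 1.02 with adjusted p-values of 0.18 to 0.566. Groups of 3 arrays were too small for single arrays to be tested against their group.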

How the results depend on the processing

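Nrg2 in the cerebellum, not called as reported, was called lower without En2-/- array 2 or WT array 3 and differed by 0.09 in the opposite direction without En2-/- array 1. No other tested member probe called in any setting changed direction in another. Both Nrg3 probes in WT, Nrg3 A_52_P80555 in En2-/- mice, and Nrg1 A_52_P158772, A_52_P369761 and A_52_P369769 in both genotypes kept their regional calls in all settings that tested them, while the WT call of Nrg1 A_52_P52635 was lost with background subtraction (adjusted p = 0.0709) and normexp (0.0716). The filter on every array left A_52_P369761, A_52_P369769 and A_52_P52635 untested, since they were dim in the hippocampus, so it says nothing about their calls. The count of member probes called by the rank product in the cerebellum, 1 as reported, became 0 without the filter on dim probes, with 1 probe per gene, with a proportion of false predictions under 0.05 and with limma in its place, and ran from 0 to 2 on leaving out single arrays. In the hippocampus the count, also 1, became 0 with the authors' log2 values, background subtraction, normexp, the filter on every array, a proportion of false predictions under 0.05 and limma, became 5 of 26 tested without the filter (Nrg2, Nrg1 A_52_P328064 and the Erbb4 probes A_51_P396034, A_52_P256090 and A_52_P608535, dim in that tissue), and ran from 0 to 1 on leaving out single arrays. The share of all probes called without the filter was not computed, so that 5 cannot be set against it. The limma count in the hippocampus, 0, ran from 0 to 1 on leaving out single arrays. Quantile normalisation within each tissue moved the median of all probes from 0.03 to 0.33 in the WT regional contrast and from 0.00 to 0.30 in the En2-/- contrast, with 75.5% and 76.5% of calls higher in the cerebellum against 50.7% and 50.6%, and raised the members called to 12 in both (from 9 and 6), as calls over all probes rose from 7083 to 9403 and from 6182 to 8076. The filter on every array left 3 of 11 tested in En2-/- mice, the share of all probes not being computed there. The 75th percentile moved the WT median to 0.11. Over all probes, the genotype calls of limma in the hippocampus fell from 510 to 134 with the replicate block.

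Replicate numbers, which are also the slides, did not pair the arrays by correlation: same-numbered arrays of different groups had correlations of -0.23 to 0.40 in their deviations from group means (18 pairs, median 0.04). With the replicate block 1 member probe was called by the rank product in each tissue, 0 passed limma for genotype in either tissue or for the difference between regions, and 9 and 6 passed for region in WT and En2-/- mice. Region contrasts with the authors' values were not run, since their values were normalised separately in each tissue. Signal over background limits the dim probes, among them Nrg2 in En2-/- hippocampus.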
